A study of Mus musculus with 4 samples.

Results

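Cxcr2, Pglyrp1 and Havcr2 are 3 genes best known from blood and immune cells that were counted here in cultured aortic endothelial cells, and they are 3 of the 27179 gene rows of the deposited table. They were chosen by symbol from the comparison of treated with control libraries, in which all 3 stood higher after treatment. That difference is therefore described and not tested. The cells were mAEC, a mouse cell line of endothelium, the inner lining of the aorta, labelled murine aortic endothelial cells. The control group, 2 libraries, was kept in normal medium, and the conditioned medium group, 2 libraries, had received supernatant taken from macrophages positive for TNFα and CD68. All libraries came from the same line, with no transgene or deletion named, and the design text calls them biological replicates. The labels do not say how long the exposure lasted, whether the replicates were separate cultures or whether the groups were prepared together, so p-values measure the spread between these libraries, and a batch that followed the groups cannot be told apart from the treatment.

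CXCR2 is a G protein-coupled receptor for the neutrophil-attracting chemokines that carry a Glu-Leu-Arg motif. It is best known for drawing neutrophils to inflamed tissue, and in endothelium it has been linked to migration and angiogenic responses. PGLYRP1 is a secreted protein that binds bacterial peptidoglycan, is stored in neutrophil granules and is a ligand of the receptor TREM1. HAVCR2, also called TIM-3, is a surface receptor with an immunoglobulin and a mucin domain, known from T cells, monocytes and dendritic cells, that binds galectin-9, phosphatidylserine, HMGB1 and CEACAM1.

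The promoter windows of the members are shown because the 3 genes stood higher together. Each window runs from 250 bases before to 50 bases after the RefSeq start, in GRCm38.p6, the assembly that mm10 is built on, and all 3 lie on the plus strand. Capitals mark an NF-kB type pattern, GGACTTNCC, or a PU.1 type (ETS) pattern, GAGGAAGT, read on both strands. The windows cover chr1:74153744-74154043 for Cxcr2, chr7:18884440-18884739 for Pglyrp1 and chr11:46454681-46454980 for Havcr2.
Cxcr2: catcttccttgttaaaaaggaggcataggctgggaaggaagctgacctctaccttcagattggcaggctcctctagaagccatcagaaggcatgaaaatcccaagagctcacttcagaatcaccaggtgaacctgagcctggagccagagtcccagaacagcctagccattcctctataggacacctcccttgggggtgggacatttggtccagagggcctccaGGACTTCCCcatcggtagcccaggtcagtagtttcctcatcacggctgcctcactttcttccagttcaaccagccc
Pglyrp1: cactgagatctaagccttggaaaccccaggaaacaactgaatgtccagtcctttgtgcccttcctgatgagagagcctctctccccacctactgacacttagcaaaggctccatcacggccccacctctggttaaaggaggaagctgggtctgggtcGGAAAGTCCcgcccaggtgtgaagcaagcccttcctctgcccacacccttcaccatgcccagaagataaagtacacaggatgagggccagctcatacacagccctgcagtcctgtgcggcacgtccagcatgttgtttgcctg
Havcr2: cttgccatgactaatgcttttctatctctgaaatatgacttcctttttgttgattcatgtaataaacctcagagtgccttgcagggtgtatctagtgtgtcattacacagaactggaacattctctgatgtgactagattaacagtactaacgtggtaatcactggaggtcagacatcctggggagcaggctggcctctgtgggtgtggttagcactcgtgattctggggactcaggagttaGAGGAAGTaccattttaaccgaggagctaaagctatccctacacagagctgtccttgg

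The windows of Cxcr2 and Pglyrp1 each held 1 match to GGACTTNCC, on the plus strand at chr1:74153968-74153976 and on the minus strand at chr7:18884597-18884605, and that of Havcr2 held 0. The pattern occurs in 1.14% of 32851 promoter windows. It was written after the windows of the members had been read, so that share does not say how unusual its matches here are. The match in Pglyrp1 was GGACTTTCC, the core of the classical kappaB site, which is a case of the same pattern and occurs in 0.344% of windows. Havcr2 held GAGGAAGT at chr11:46454923-46454930, a pattern found in 3.20% of windows and in neither other member. Havcr2 also held the AP-1 type pattern TGANTCA, found in 7.81% of windows. The HIF type core ACGTG occurred in Pglyrp1 and in Havcr2, as in 19.6% of windows. Patterns of the C/EBP type (TTGCNNAA, in 10.8% of windows), the ISRE type (TTCNNTTTC, 8.56%), the STAT type (TTCNNNGAA, 8.30%) and the TATA box (TATAAA, 13.6%) had 0 matches in the 3 windows. These matches describe the letters of the windows and are not evidence of binding. None of the patterns searched was shared by all 3 members.

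Library totals ran from 13815695 to 18005840 counts, so that 3 counts equalled 0.167 to 0.217 CPM, the count scaled to library size. The endothelial label was checked against 14 marker genes. Of these 12 passed the count filter, and Pecam1 and Cdh5, junction proteins of endothelial cells, stood at 2414 ± 41.6 and 1908 ± 20.7 CPM in control libraries (SD, n = 2). Vwf, which also passed, stood at only 2.90 ± 0.840 CPM in control (SD, n = 2). The tight junction gene Cldn5 held 1 count in 1 library and 0 in the others, and Sox17 was at 0 in all 4. Across all genes, edgeR's quasi-likelihood test called 2330 of 13897 genes tested, 16.8%, at an adjusted p under 0.05, with 8.53% higher and 8.23% lower in conditioned medium. Without conditioned medium replicate 1 it called 808 genes and without replicate 2 of that group 569, and DESeq2 called 857, or 6.72% of those it gave an adjusted p.

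Cxcr2, the chemokine receptor gene, lies at chr1:74153994-74161246 on the plus strand. It held 97 and 100 counts in the control libraries and 299 and 466 counts in the conditioned medium libraries. Scaled to library size these were 6.57 and 6.84 CPM in control against 21.6 and 25.8 CPM in conditioned medium. Both conditioned medium libraries stood well above both controls, and the controls were nearly level with each other. The mean went from 6.71 ± 0.194 to 23.7 ± 3.01 CPM (SD, n = 2), a log2 change of 1.83 ± 0.13 (SE), or 3.55-fold. Over the 4 pairings of a treated with a control library the ratio ran from 3.15 to 3.93.

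Pglyrp1, the peptidoglycan-binding protein gene, lies at chr7:18884690-18890438 on the plus strand. It held 179 and 171 counts in control and 429 and 595 in conditioned medium. In CPM the control libraries stood at 12.1 and 11.7 and the conditioned medium libraries at 31.0 and 33.0. The libraries within a group lay close together and the groups did not overlap. The mean went from 11.9 ± 0.298 to 32.0 ± 1.43 CPM (SD, n = 2), a log2 change of 1.43 ± 0.09 (SE), or 2.69-fold. The ratio over the 4 pairings ran from 2.55 to 2.82, the narrowest range of the 3 genes.

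Havcr2, the TIM-3 gene, lies at chr11:46454931-46481255 on the plus strand. It held 321 and 252 counts in control and 552 and 722 in conditioned medium. In CPM these were 21.7 and 17.2 against 39.8 and 40.0. The treated libraries were almost equal, whereas control replicate 1 stood 1.26-fold above control replicate 2. The mean went from 19.5 ± 3.18 to 39.9 ± 0.134 CPM (SD, n = 2), a log2 change of 1.03 ± 0.09 (SE), or 2.05-fold. Leaving out control replicate 2 gave 0.88 and leaving out control replicate 1 gave 1.21 on the log2 scale.

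**Figure D1:**
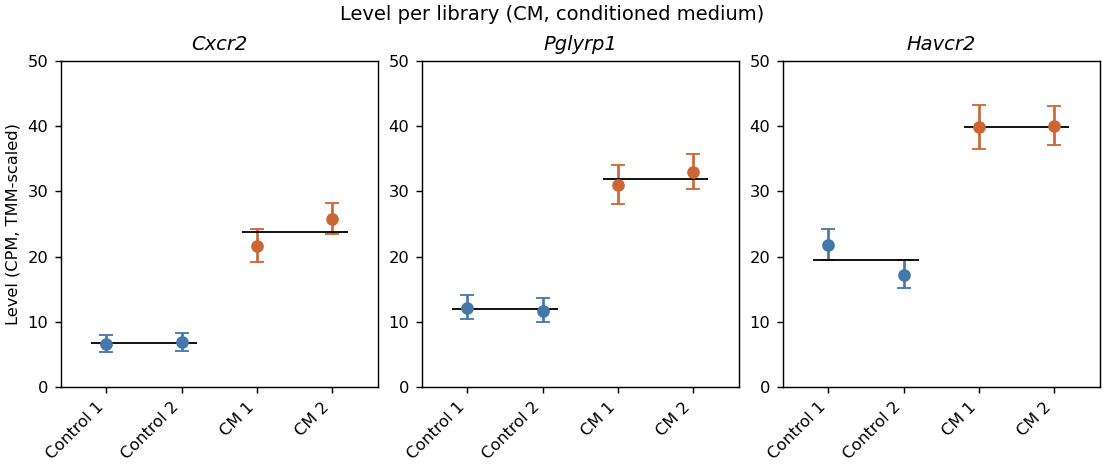
Level of Cxcr2, Pglyrp1 and Havcr2 in CPM in each of the 4 libraries, with control in blue and conditioned medium (CM) in orange. Bars on the points are 95% counting intervals and black lines are group means. Every conditioned medium library lies above both control libraries, from 21.6 CPM for Cxcr2 to 40.0 CPM for Havcr2.

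All 3 genes passed the count filter. In all 3, both conditioned medium libraries lay above both controls, as they did in 28.5% of all tested genes, the groups being separate in either direction in 57.2%, and the members were chosen for this difference. Among the 13897 tested genes, the rise in Cxcr2 was the 18th largest by log2 fold change, that in Pglyrp1 the 49th and that in Havcr2 the 136th. The counting interval at 95% confidence ran from 5.33 to 8.01 CPM for Cxcr2 in control replicate 1 and from 19.2 to 24.2 CPM in conditioned medium replicate 1. Such intervals cover counting error only and not the spread between libraries, and the reads carried no molecular identifiers to mark duplicate copies. Set against Cdh5, the VE-cadherin gene, in place of the library total, Cxcr2 held 3.47 and 3.56 counts per 1000 Cdh5 counts in control and 10.7 and 13.0 in conditioned medium. Cdh5 itself was not called, except without control replicate 2 (edgeR adjusted p = 0.0273, from there up to 0.738 over 11 alternatives). By that measure the folds were 3.37 for Cxcr2, 2.56 for Pglyrp1 and 1.95 for Havcr2. In bulk RNA, more cells that express a gene and more RNA per cell cannot be told apart.

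To compare levels between genes, CPM was divided by the length in kilobases of the annotated exons. This was 3048 bases for Cxcr2, 1837 for Pglyrp1 and 2721 for Havcr2. In GENCODE M21, the source of the lengths, Pglyrp1 begins at chr7:18871331, well before its RefSeq start at 18884690. Exons absent from the annotation used for counting would add length without counts. The level of Pglyrp1 per kb may thus be understated, and its comparison with Havcr2 depends on these lengths. In control, Cxcr2 was the lowest of the 3 at 2.20 CPM per kb, below Pglyrp1 at 6.48 and Havcr2 at 7.16 CPM per kb. Pglyrp1 and Havcr2 did not differ beyond their spread in control, with 6.60 and 6.37 against 7.99 and 6.34 CPM per kb in the 2 libraries. In conditioned medium the order of these levels was Pglyrp1 at 17.4, Havcr2 at 14.7 and Cxcr2 at 7.78 CPM per kb. There the libraries of Pglyrp1, at 16.8 and 18.0, did not overlap those of Havcr2, at 14.6 and 14.7. Of 12146 tested genes with an exon length, 24.1% lay below Cxcr2 by this level in control and 57.9% in conditioned medium. For Pglyrp1 the share below it went from 52.1% to 79.1%, and for Havcr2 from 54.9% to 75.3%.

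Of 16 macrophage markers, 7 were at 0 in all 4 libraries, among them Tyrobp, the adaptor of TREM receptors, Adgre1, which encodes F4/80, and Spi1, the myeloid factor PU.1. A further 5 had at most 3 counts in any library. Ptprc, the pan-leukocyte gene for CD45, held 1 count in conditioned medium replicate 1 and 0 elsewhere. Csf1r and Itgam, surface receptors of macrophages, held at most 1 and 3 counts in a library. Of the 3 macrophage markers that passed the count filter 0 were called by edgeR, with 0 at an unadjusted p under 0.05 and 0 called by DESeq2. Cd68, the marker used to name the donor macrophages, was itself expressed by these cells, at 234 ± 20.0 CPM in control and 245 ± 5.76 CPM in conditioned medium (SD, n = 2; edgeR adjusted p = 0.429), and without control replicate 2 it was called (edgeR adjusted p = 0.00251, the lowest of 11 alternatives that reached 0.835). The summed level of the macrophage list other than Cd68 was 10.7 and 12.2 CPM in control and 12.0 and 11.4 CPM in conditioned medium. The groups overlapped in that sum.

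Neutrophil markers were mixed. Csf3r, the receptor for granulocyte colony-stimulating factor, was at 0 in all libraries, as were the granule enzyme genes Mpo and Mmp8, the secreted factor Retnlg and the lineage factor Cebpe. S100a8, a calcium-binding protein abundant in neutrophils, held 192 and 97 counts in control and 523 and 741 in conditioned medium. It rose 4.02-fold (edgeR adjusted p = 1.41e-08), with control replicate 1 well above control replicate 2, and its log2 fold change of 2.01 ran from 1.60 without control replicate 2 to 2.57 without control replicate 1. Its partner S100a9 held 2 and 0 counts against 8 and 22, and Ly6g, a surface antigen of mouse neutrophils, held 1 and 0 against 8 and 10. Over the summed counts of a group the ratio was 13.8 for S100a9, with a 95% counting interval of 3.50 to 119, and 16.6 for Ly6g, with an interval of 2.62 to 691. Both were below the count filter and were called when the filter was dropped (edgeR adjusted p = 0.0139 and 0.0321). DESeq2 gave neither an adjusted p. Lcn2, a siderophore-binding protein of neutrophils that stressed non-myeloid cells also make, was abundant and fell from 2404 ± 130 to 2070 ± 135 CPM (SD, n = 2; edgeR adjusted p = 0.00432), a call that was lost without either conditioned medium library (edgeR adjusted p from 5.48e-21 to 0.359 over 11 alternatives). Of the 3 list genes that passed the filter 1 rose and 1 fell. In some fits with a library left out S100a9 passed as well, only through the conditioned medium libraries. The summed level of the list other than Lcn2 was 17.3 and 9.58 CPM in control and 43.0 and 47.6 CPM in conditioned medium. S100a8 made up 13.0 and 6.64 CPM of this in control and 37.7 and 41.1 CPM in conditioned medium, and the third tested gene, Ltf, the lactoferrin gene, stood at 3.66 and 2.60 CPM against 3.75 and 4.21 CPM (edgeR adjusted p = 0.319). The part of S100a8, S100a9 and Ly6g in the rise of the members was not tested.

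Of 12 T cell markers, 6 were at 0 in all libraries, among them Cd3e, a chain of the T cell receptor complex, and the 2 that passed the filter were not called by edgeR, with 0 at an unadjusted p under 0.05 and 0 called by DESeq2. The higher was Cd247, another chain of that complex, at 29.4 ± 0.649 and 27.9 ± 1.35 CPM (SD, n = 2; edgeR adjusted p = 0.597). The summed T cell list was at 34.6 and 34.4 CPM in control and 32.1 and 34.1 CPM in conditioned medium. Endothelial markers summed to 7016 and 7005 CPM in control and to 7109 and 7042 CPM in conditioned medium. Of the 12 tested, Egfl7 rose 1.16-fold, Kdr and Emcn were at 0.897-fold and 0.912-fold and called lower, and 9 were not called, among them Pecam1 (edgeR adjusted p = 0.994). These 3 calls were lost without either conditioned medium library, that of Emcn also in DESeq2. Of 10 smooth muscle and fibroblast markers 3 were tested, and Pdgfra, a growth factor receptor of fibroblasts, rose 1.21-fold, a call lost in DESeq2, without control replicate 1 and without either conditioned medium library.

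**Figure D2:**
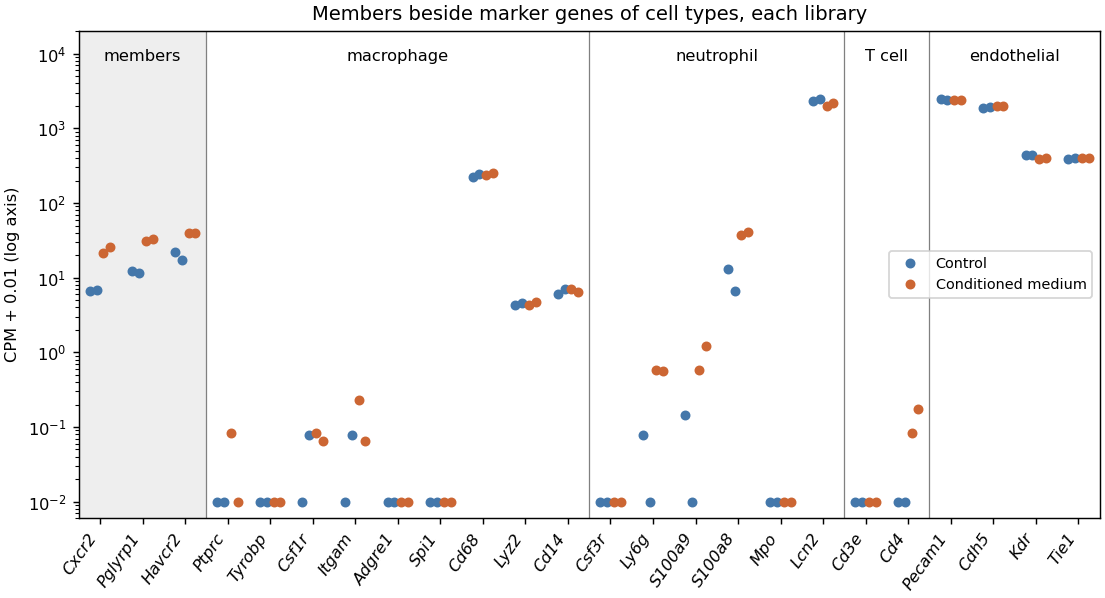
Level in CPM plus 0.01, on a log axis, of the 3 members and of marker genes of macrophages, neutrophils, T cells and endothelium, with 1 point per library (control blue, conditioned medium orange). Points at the bottom are libraries with 0 counts. The members stand between 6.57 and 40.0 CPM, while Tyrobp, Adgre1, Spi1, Csf3r, Mpo and Cd3e are at 0 throughout, and S100a8, S100a9 and Ly6g stand higher in conditioned medium.

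The ligands of CXCR2 did not move together. Of 7 genes listed 4 were tested, and 1 rose and 1 fell, where 8.53% of all tested genes rose and 8.23% fell. The median log2 fold change of the list was -0.31 against 0.00037 over all tested genes. Cxcl1, a main mouse ligand, fell from 98.7 and 89.6 CPM in control to 60.0 and 71.7 CPM in conditioned medium, a log2 change of -0.51 ± 0.07 (SE; edgeR adjusted p = 2.97e-05). Thus the receptor gene stood higher and this ligand gene lower in the same libraries. Cxcl2 stood at 44.7 ± 0.153 and 40.7 ± 4.77 CPM (SD, n = 2; edgeR adjusted p = 0.280), and Cxcl3 at 1.16 ± 0.586 and 0.821 ± 0.0635 CPM (SD, n = 2; edgeR adjusted p = 0.468). Mif, a cytokine that also binds CXCR2, rose 1.28-fold (edgeR adjusted p = 6.21e-04), a call lost without conditioned medium replicate 2, where 0 ligands rose. Cxcl5, Cxcl15 and Ppbp, the remaining ligands, were at 0 in all libraries.

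Other chemokine receptors were low or were not called. Cxcr1, the closest relative of Cxcr2 and a receptor for some of the same chemokines, held 1 and 0 counts in control and 0 and 3 in conditioned medium. Of 16 receptors, 5 were at 0 in all libraries and 6 were tested, of which 0 were called by edgeR, 0 by DESeq2 and 1 at an unadjusted p under 0.05, with a median log2 fold change of -0.03. Ackr3, a scavenging receptor for Cxcl12, was the highest, at 119 ± 2.21 and 127 ± 1.56 CPM (SD, n = 2; edgeR adjusted p = 0.232). Cxcr3, a receptor for interferon-induced chemokines, held 7 and 7 counts against 10 and 21, a log2 change of 1.01 ± 0.47 (SE; edgeR adjusted p = 0.152). It was the gene at an unadjusted p under 0.05, and it passed the count filter only through the conditioned medium libraries.

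Of 26 genes that carry the signal of chemokine receptors 23 were tested, 7 rose, 2 fell and 14 were not called. Among all tested genes 8.53% rose and 8.23% fell. The median log2 fold change of the list was 0.05. Gng2, a G protein gamma subunit, fell from 126 ± 2.74 to 86.0 ± 1.32 CPM (SD, n = 2), a log2 change of -0.55 ± 0.05 (SE; edgeR adjusted p = 1.86e-07). Pik3r5, a regulatory subunit of the G protein-activated PI3 kinase, rose 1.61-fold (edgeR adjusted p = 0.0448), and Prex1, a Rac exchange factor that acts downstream of CXCR2 in neutrophils, rose 1.42-fold (edgeR adjusted p = 0.0319). Arrb1, which encodes a beta-arrestin that desensitises such receptors, rose by 0.26 ± 0.04 on the log2 scale. The catalytic subunit gene Pik3cg stood at 14.7 ± 0.252 and 15.3 ± 1.33 CPM (SD, n = 2; edgeR adjusted p = 0.830), and Gnai2, the main inhibitory G protein subunit of leukocytes, at 854 ± 28.4 and 805 ± 1.47 CPM (SD, n = 2; edgeR adjusted p = 0.178, and called lower without control replicate 1 at 0.00175, with alternatives up to 0.581). Without either conditioned medium library 1 of these genes rose and 1 fell, and Pik3r5 lost its call without any 1 of the 4 libraries. Prex1 lost its call without control replicate 2 or either conditioned medium library and with no count filter, and DESeq2 called neither.

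The relatives of Pglyrp1 were not detected: Pglyrp2, Pglyrp3 and Pglyrp4 were at 0 counts in all 4 libraries. So was Trem1, the receptor that PGLYRP1 is known to engage, with all 4 other TREM family genes listed and their adaptor Tyrobp. Of 10 genes in the list of binding partners and TREM receptors 3 were tested and 3 rose, where 8.53% of all tested genes rose. The median log2 fold change was 0.77, the value of Hspa1a. Hspa1a and Hspa1b, encoding the inducible heat shock protein with which PGLYRP1 forms a complex, rose 1.70-fold and 1.72-fold (edgeR adjusted p = 0.00282 and 6.22e-04). They are near-identical copies, so their reads could be split or shared, and the separate values are uncertain. The count of 3 risen genes and the median therefore do not rest on 3 independent genes. Tnfrsf1a, the TNF receptor to which human PGLYRP1 has been reported to bind, rose from 182 ± 16.7 to 219 ± 1.08 CPM (SD, n = 2; edgeR adjusted p = 0.00134). Without conditioned medium replicate 2 none of the 3 was called, without replicate 1 of that group Tnfrsf1a was not, and DESeq2 did not call Hspa1a.

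Recognition of peptidoglycan inside the cell, at its surface or by secreted proteins was represented by several expressed genes. Of 19 listed 14 were tested, 3 rose and 0 fell, with 11 not called and a median log2 fold change of 0.04. Among all tested genes 8.53% rose and 8.23% fell. Slc46a3, a lysosomal transporter gene, rose from 22.5 ± 0.791 to 32.2 ± 1.04 CPM (SD, n = 2), or 1.43-fold (edgeR adjusted p = 1.46e-04). Nod1, an intracellular sensor of peptidoglycan fragments, rose 1.22-fold (edgeR adjusted p = 0.0209), and Nlrp3, an inflammasome sensor, rose 2.15-fold on 11 and 15 counts against 27 and 34 (edgeR adjusted p = 0.0305). Nod2 stood at 4.90 ± 0.710 and 5.54 ± 0.0809 CPM (SD, n = 2; edgeR adjusted p = 0.564), and Tlr2, a surface receptor for bacterial lipoproteins, at 29.0 ± 0.605 and 27.0 ± 0.366 CPM (SD, n = 2; edgeR adjusted p = 0.402). Without either conditioned medium library 1 gene of the list rose, and Nod1 and Nlrp3 lost their calls, Nod1 also in DESeq2 and Nlrp3 also without control replicate 1.

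Havcr2 was the detected member of its family. Havcr1 and Timd2 were at 0 counts in all libraries and Timd4 held at most 1. Of 12 TIM family, ligand and partner genes 7 were tested, 0 rose and 2 fell, with a median log2 fold change of -0.01. Among all tested genes 8.53% rose and 8.23% fell. The 2 genes of the list that fell encode ligands of TIM-3. Lgals9, the galectin-9 gene, held 154 and 155 CPM in control and 120 and 127 in conditioned medium, a log2 change of -0.32 ± 0.05 (SE; edgeR adjusted p = 8.47e-05). Hmgb1, a chromatin protein that acts as an alarm signal outside the cell, fell from 424 ± 31.0 to 341 ± 4.91 CPM (SD, n = 2; edgeR adjusted p = 1.05e-04), a call lost without conditioned medium replicate 2 (edgeR adjusted p = 0.0536, with 2.85e-23 at the lowest of 11 alternatives). Ceacam1, a further ligand, stood at 17.1 ± 0.212 and 19.2 ± 2.54 CPM (SD, n = 2; edgeR adjusted p = 0.344). Adam10 and Adam17, proteases that shed TIM-3 from the cell surface, were at log2 fold changes of -0.01 ± 0.05 and 0.01 ± 0.04 (SE; edgeR adjusted p = 0.890 and 0.932).

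Of 20 other immune checkpoint genes 10 were tested, 2 rose and 1 fell, with a median log2 fold change of -0.04. Among all tested genes 8.53% rose and 8.23% fell. Lgals3, the galectin-3 gene, rose from 15.5 ± 1.09 to 22.3 ± 0.339 CPM (SD, n = 2), or 1.44-fold (edgeR adjusted p = 6.87e-04). Nectin2, an adhesion molecule and checkpoint ligand, rose 1.13-fold (edgeR adjusted p = 0.0199). Cd200, an inhibitory ligand of endothelium and neurons, fell by 0.41 ± 0.14 on the log2 scale (SE; edgeR adjusted p = 0.0392). Cd274, which encodes PD-L1, stood at 7.70 ± 0.827 and 6.30 ± 0.0292 CPM (SD, n = 2; edgeR adjusted p = 0.232). Pdcd1 and Btla, checkpoint receptors of lymphocytes, held at most 1 count in a library, Ctla4 likewise, and Lag3 held 7 to 13. DESeq2 called neither Nectin2 nor Cd200. Both lost their calls when either conditioned medium library was left out, and Cd200 also without control replicate 1 and with no count filter.

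**Figure D3:**
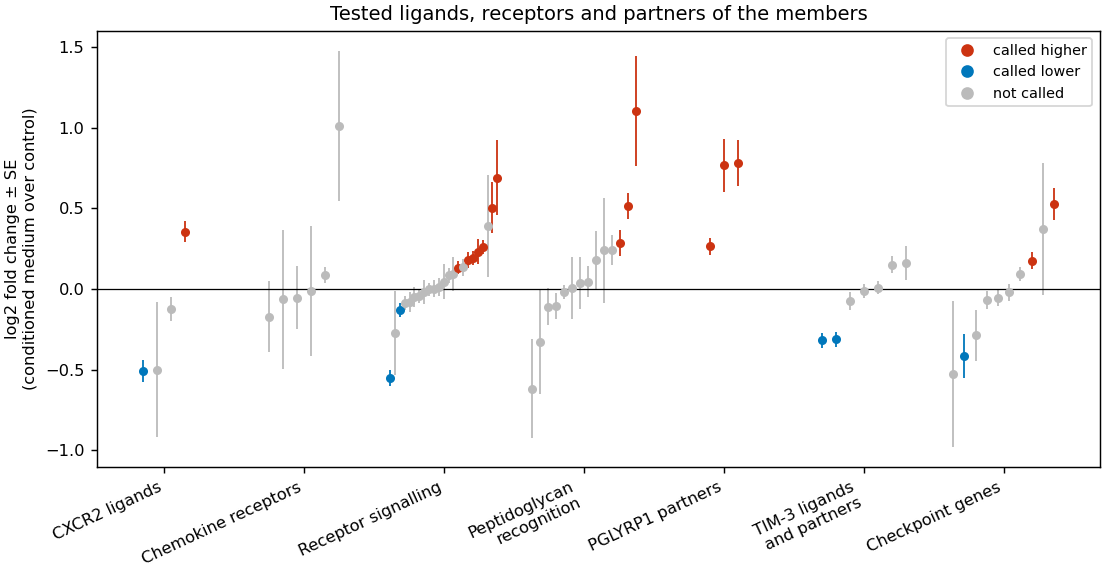
Log2 fold change (conditioned medium over control) with its SE for each tested gene of the 7 lists around the members, red where called higher, blue where called lower and grey where not called by edgeR. Cxcl1, Lgals9 and Hmgb1 lie below 0, and the 3 tested partners of PGLYRP1 lie above it.

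The genes on either side of each member were read to see whether its difference extended along the chromosome. Rufy4, a gene known for a role in autophagy of dendritic cells, ends 5763 bases before Cxcr2 and is on the same strand. It held 134 and 108 counts in control and 240 and 298 in conditioned medium, and it rose from 8.23 ± 1.19 to 16.9 ± 0.565 CPM (SD, n = 2), a log2 change of 1.03 ± 0.13 (SE; edgeR adjusted p = 8.05e-06). It was called under all 11 alternatives run, at log2 fold changes of 0.89 to 1.19. On the other side of Cxcr2, 30538 bases away, Cxcr1 was near 0 as given above. A difference in the same direction was therefore present in the gene before Cxcr2, and none was detectable in the gene after it at this depth.

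Pglyrp1 lies 444 bases from Ccdc61, a coiled-coil gene on the opposite strand, and the libraries do not mark strand. Ccdc61 stood at 8.74 and 7.32 CPM in control and at 7.65 and 8.59 CPM in conditioned medium (edgeR adjusted p = 0.941), and Mill2, the gene before Pglyrp1, at 3.33 ± 0.457 and 3.33 ± 0.395 CPM (SD, n = 2; edgeR adjusted p = 0.976). Beside Havcr2, Med7, a Mediator subunit gene, stood at 33.3 ± 2.60 and 35.3 ± 0.744 CPM (SD, n = 2; edgeR adjusted p = 0.513), and Gm12169 held at most 1 count per library. No other gene of the GENCODE M21 annotation overlapped any of the 3 members.

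**Figure D4:**
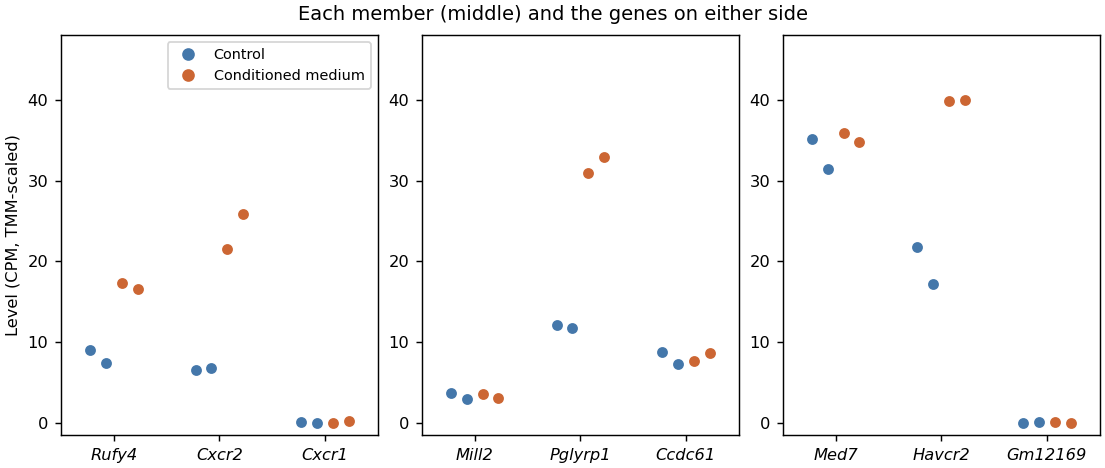
Level in CPM of each member, in the middle of its panel, and of the nearest genes with a row on either side, with 1 point per library (control blue, conditioned medium orange). Rufy4 stands higher in conditioned medium beside Cxcr2, while Mill2, Ccdc61 and Med7 stand at like levels in both groups.

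The profiles of the members over the 4 libraries were compared with those of all other tested genes by the distance between log2 CPM values centred on their mean, a description that rests on the same contrast. Cxcr2 and Pglyrp1 lay at 0.41 from each other, Pglyrp1 and Havcr2 at 0.43 and Cxcr2 and Havcr2 at 0.84. The 5 genes nearest to Cxcr2 were Mmp3 at 0.13, Prkcb at 0.19, Gm5947 at 0.29, Gm15143 at 0.31 and Gm16445 at 0.33, where the median over all genes was 1.83. Mmp3 encodes a matrix-degrading protease and Prkcb a protein kinase C. Gm16445 held 7 and 8 counts in control against 27 and 31 in conditioned medium. It passed the count filter only through the conditioned medium libraries, so its distance is uncertain. Nearest to Pglyrp1 were Sprr1a, a cornified envelope gene, at 0.06, 4732490B19Rik at 0.08, Samt1 at 0.10, Samt1b at 0.11 and Samt1c at 0.15. The median there was 1.44. Of these, 4732490B19Rik held only 4 and 4 counts in control against 10 and 14 in conditioned medium. It too passed the filter only through the conditioned medium libraries, and its small distance is uncertain at such counts. The 3 Samt genes held almost the same counts, with 22, 19, 51 and 72 in Samt1 and 22, 19, 51 and 73 in Samt1b, so the counting may have given the same reads to each.

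Among the genes nearest to Havcr2 were Car15, a carbonic anhydrase gene, at 0.06, Rufy4 at 0.06, Sema3a, a guidance molecule, at 0.12 and Fam205a2 at 0.13, against a median of 1.09. These genes share with Havcr2 a control replicate 1 above control replicate 2, which follows from their choice by profile. Car15 held only 8 and 6 counts in control against 14 and 19, and Fam205a2 7 and 6 against 14 and 17. In both, the difference between controls lies within counting error. Both passed the count filter only through the conditioned medium libraries. Sema3a held 881 and 730 counts in control against 1638 and 2222 in conditioned medium. Rufy4, the chromosomal neighbour of Cxcr2, was thus among the nearest in profile to Havcr2 and not to Cxcr2.

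**Figure D5:**
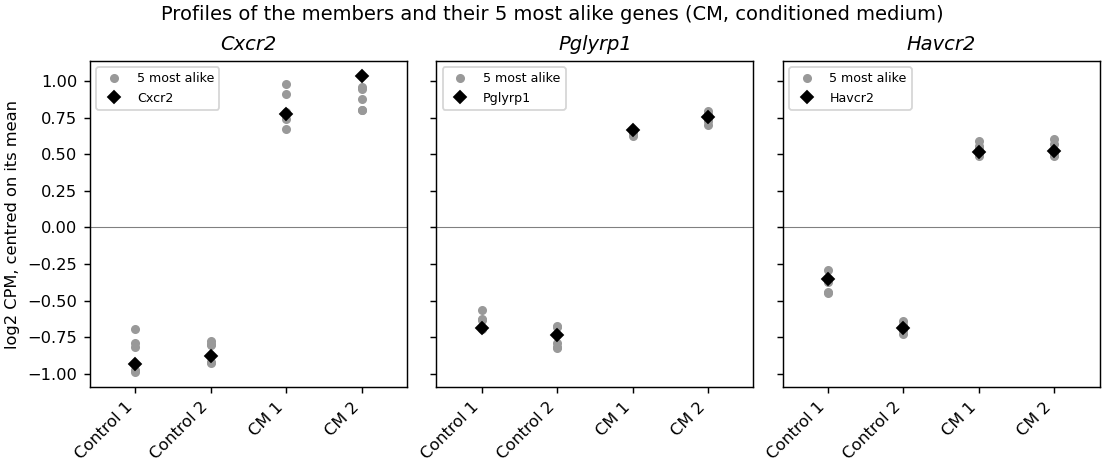
Log2 CPM centred on the mean of the 4 libraries for each member (black diamond) and the 5 genes with the most similar profile (grey points), by library (CM, conditioned medium). In the Havcr2 panel control replicate 1 lies above control replicate 2 for the member and for its nearest genes, which were picked by profile.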

How the data were processed

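Per the labels' protocols, total RNA went into TruSeq V2 libraries, a kit without strand information. The authors deposited raw counts per gene, under Entrez identifiers; STAR 2.5.2b, mm10, Subread 1.4.6-p1 and featureCounts appear in the submitters' processing notes, with settings not given in the sources used here. Of 27179 rows 25275 matched a RefSeq gene of GRCm38.p6; the 1904 unmatched rows held 6.31% of counts and stayed in the fit. Groups follow the treatment label.

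Raw counts were analysed in edgeR 4.0.16 (R 4.3.3): filterByExpr (minimum count 10, total 15), TMM scaling (factors 0.987 to 1.01), the two-sided quasi-likelihood test with 2 residual degrees of freedom and no replicate block, and Benjamini-Hochberg adjustment over 13897 genes, called under 0.05. Each SE is the size of the log2 fold change divided by the root of F. The procedure was tested on simulated data. DESeq2 1.42.0, other scalings and filters, a replicate block and each library left out in turn were the alternatives. Profile distances used log2 CPM with a prior count of 0.5.

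The members and lists were chosen with earlier results of these data known. Named were the 3 members, up to 3 called genes per list with the biggest log2 fold change in either direction (or the highest by CPM where 0 were called), the 5 genes nearest in profile, the adjacent genes and fixed markers, ligands and receptors; further genes given from the lists were named after their values were seen, and the motifs were chosen after the promoter windows were seen. Of the genes nearest in profile, 1 is not reported here. Exon lengths are unions of GENCODE M21 exons joined by Entrez identifier, which reached 12146 of 13897 tested genes. Promoters are RefSeq's.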

Additional observations from a re-analysis of the deposited data

How the results depend on the processing

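Over the 11 alternatives the log2 fold changes of the members ran from 1.68 to 1.94 for Cxcr2, 1.38 to 1.47 for Pglyrp1 and 0.88 to 1.21 for Havcr2. These bounds came from libraries left out. All shifts were smaller than the spread between replicates. With 2 libraries in a group, leaving 1 out can hardly shift the mean by more than that spread. For those settings the comparison with the spread therefore does not show stability. Of the 15 nearest genes 12 remained with a prior count of 2, 13 with a filter at 1 CPM in 2 libraries and 15 with RLE scaling. Genes called over all tested went from 2330 to 857 in DESeq2, with 435 higher and 422 lower, and from 569 to 3107 with a library left out (323 to 1485 higher, 246 to 1622 lower). The replicate numbers do not pair the libraries by the labels, and deviations of same-numbered libraries correlated at -0.01. With a replicate block 2671 genes were called, and in the TIM list 1 rose, as with upper-quartile scaling and the 1 CPM filter.

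In DESeq2, 2 signalling genes rose and 1 fell, 1 peptidoglycan gene rose, 1 checkpoint gene rose and 0 fell, 0 smooth muscle and fibroblast markers rose and 1 endothelial marker fell. In signalling 1 gene fell with upper-quartile scaling, with library totals only and with no count filter. With no count filter 0 checkpoint genes fell and 3 neutrophil markers rose. With a library left out the counts ran as follows: CXCR2 ligands 0 to 1 risen; signalling 1 to 6 risen and 1 to 3 fallen; peptidoglycan recognition 1 to 4 risen; PGLYRP1 partners 0 to 3 risen; TIM list 0 to 1 risen and 1 to 2 fallen; checkpoint genes 1 to 3 risen and 0 to 1 fallen. For markers they were 0 to 1 macrophage, 1 to 2 neutrophil, 0 to 1 smooth muscle and fibroblast and 0 to 2 endothelial genes risen, and 0 to 1 neutrophil and 0 to 2 endothelial genes fallen. Where a library of either group is left out, the spread comes from the libraries of the other group alone. The lone library is then assumed to vary like them. The cause of other changes was not tested. The further neutrophil marker tested with some libraries left out was S100a9, which passed the filter only through the conditioned medium libraries. Genes at 3 or fewer counts cannot be told from 0 at this depth.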
